A study of Mus musculus with 8 samples.

Results

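The cell cycle machinery and the genes that take cells out of the cycle were followed in newborn mouse organ of Corti, the strip of hair cells and supporting cells on the floor of the cochlear duct. The genes were taken by symbol from a set of 45, of 41079 genes in the deposited table: 39 proliferation genes, for DNA replication, mitosis and the cyclins and kinases that drive them, and 6 exit genes, for Cdk inhibitors and pocket proteins. They were sorted into 8 groups by role. RNA came from 4 libraries labelled as a Prox1 knock-out carrying Emx2-cre and floxed-Prox1, and from 4 wildtype libraries, all of tissue dissected at postnatal day 0. Prox1, a transcription factor of cochlear supporting cells such as pillar and Deiters cells, is meant to be lost in this cross from cells where the Emx2 gene drives Cre. The labels leave out strain, the number of animals in a library and whether wildtype animals carried Cre or a floxed allele. They do not call the libraries separate animals, so a p-value here measures the spread of these samples alone, part or all of which may be technical.

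A dividing cell licenses its replication origins in G1 by loading the Mcm helicase, builds deoxynucleotides and copies its DNA in S phase, and then uses cyclin B with Cdk1 and the spindle machinery to divide. D cyclins with Cdk4 and Cdk6 start the process by phosphorylating the pocket proteins, which releases E2F factors to switch on replication genes. Cdk inhibitors oppose these kinases. In the mouse cochlea, hair cell and supporting cell precursors leave the cycle before birth in a wave marked by Cdkn1b, the p27Kip1 inhibitor, and stay out of it afterwards, while mesenchyme, glia and vessels around them go on dividing.

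Each library held between 29908965 and 32613549 counts in the knockout-labelled group and between 32863533 and 42318233 in wildtype, and values are given as CPM, the count relative to the scaled library size. The TMM scaling factors lay between 0.964 and 0.987 for the libraries 1 and 4 labelled knockout and the wildtype libraries 1 and 3, and between 1.02 and 1.03 for the others. Prox1 itself was higher in the libraries labelled knockout, with 147, 137, 138 and 134 CPM in the libraries labelled knockout 1 to 4, against 109, 114, 106 and 115 CPM in the wildtype libraries 1 to 4. The groups did not overlap, the log2 fold change was 0.33 ± 0.05 (SE), and the adjusted p was 0.0298 in the edgeR quasi-likelihood test, Benjamini-Hochberg adjusted. With any 1 of the other 7 libraries removed, keeping library 4 labelled knockout, the adjusted p lay between 0.0599 and 0.180 in the same test. The higher Prox1 level goes against the label, so every direction is stated for the libraries as labelled. Whether the labels of the groups were exchanged was not tested, and an exchange would turn the sign of every difference given. The counts cover Prox1 as 1 gene, and its floxed part was not analysed separately. Hair cell markers (Pou4f3, Myo7a) and supporting cell markers (Sox2, Sox9) were counted in all 8 libraries.

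Levels of different genes were set side by side as CPM per kilobase of exon. The length counts every exon base annotated for a gene in GENCODE M21, over all its transcripts, such as 11.0 kb for Rrm1 and 2.04 kb for Cdkn1c. It can exceed the length of the RNA present, so the order of genes depends in part on the annotation. On that scale the most abundant member was an exit gene, Cdkn1c, which encodes the p57Kip2 inhibitor, at 197 to 229.6 in the libraries labelled knockout and 212 to 245 in wildtype. Cdk4, a G1 kinase, followed at 54.0 to 60.1 in the libraries labelled knockout and 54.4 to 63.6 in wildtype. Ccnd2, its cyclin partner, held 42.7 to 50.3 in the libraries labelled knockout and 44.8 to 51.3 in wildtype, and Cdkn1b 26.4 to 29.0 in the libraries labelled knockout and 25.96 to 27.5 in wildtype. These 4 did not overlap one another in any library. Below them came Pcna, the sliding clamp of replication, and Cdkn1a, the p21 inhibitor, at 18.0 and 14.7 CPM per kilobase over the 8 libraries, whose ranges overlapped. Mki67 averaged 13.6 and Cdk1, the mitotic kinase, 2.91 CPM per kilobase. The lowest members were Mcm10, a replication initiation factor, at 0.621 and the cyclin gene Ccne2 at 1.31 CPM per kilobase. The scale was thus led by the Cdk inhibitor genes Cdkn1c and Cdkn1b and by the pair of Cdk4 and Ccnd2. Another inhibitor gene, Cdkn2c, stood low, at 2.78 CPM per kilobase. All 45 members passed the filter on low counts.

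**Figure D1:**
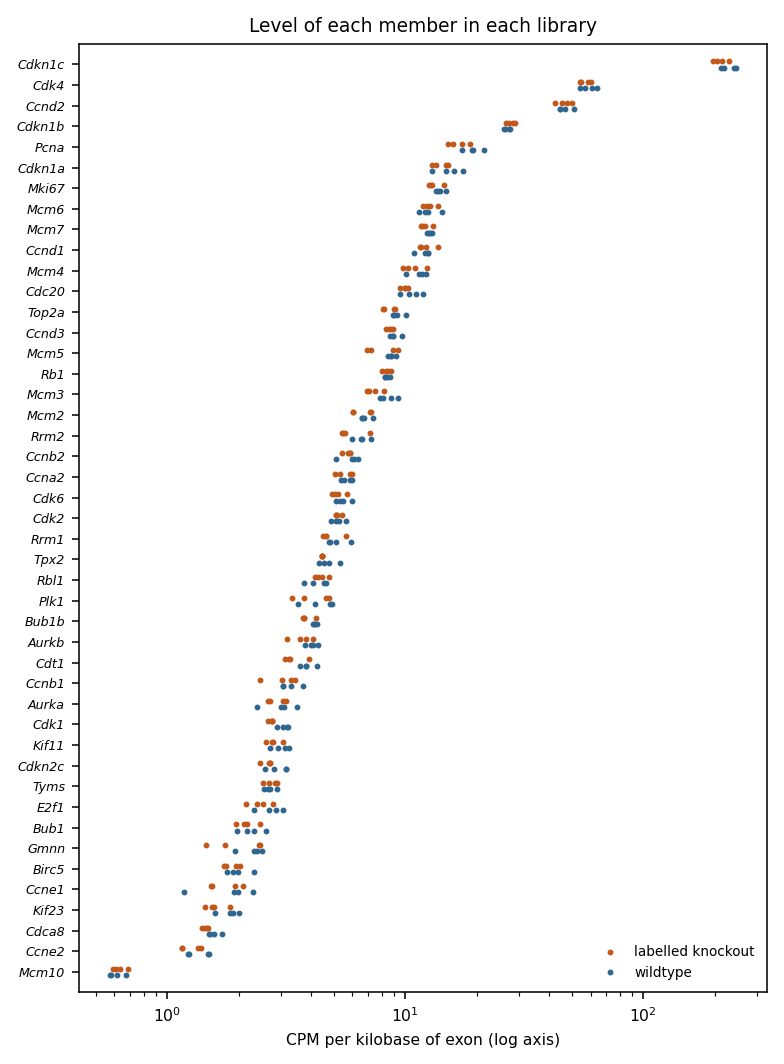
CPM per kilobase of exon (log axis) of each of the 45 members, with 1 point per library, labelled knockout above wildtype in each row. Cdkn1c lies highest and Mcm10 lowest, and the points of both groups lie close together in every row.

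No proliferation gene passed the test between the libraries labelled knockout and wildtype. Of 39 proliferation members, 0 were higher and 0 lower at an adjusted p under 0.05 in the edgeR quasi-likelihood test, Benjamini-Hochberg adjusted, where 0.034% of 20581 tested genes were called higher and 0.0583% lower (0.0923% in either direction). DESeq2 on the same counts also called 0 of the 45 members, where it called 35 genes higher and 48 lower of the 20581. The authors' deposited table called 0 of the 45 too, and 86 genes in all. Values leaned slightly to the lower side: 35 of the 39 had a log2 fold change below 0, against 10290 of the 20581 tested genes. The median was -0.09, against 0.00 for all tested genes. With upper quartile scaling 33 of the 39 lay below 0, against 45.2% of all genes. The lean was not particular to these genes: in each of the 10 lists of cell type markers given further on, most tested markers also lay below 0. Unadjusted p-values below 0.05 were found by edgeR for 3 of the 39 on the lower side and 0 on the higher side, where 2.78% of all genes lay lower and 4.76% higher. The members were measured in the same 8 libraries and are not independent observations. Summed over the 39 genes, the libraries labelled knockout held 1631 to 1788 CPM and the wildtype libraries 1696 to 1880 CPM, ranges that overlap. The median coefficient of variation of the 45 members was 6.99% in the libraries labelled knockout and 7.37% in wildtype, against 9.85% and 10.3% for all tested genes in the same groups. The sets were not matched for level: members held at least 2.14 CPM in every library, while tested genes ran down to 0 CPM. Log2 fold changes of the 39 genes ran from -0.20 to 0.05. The 95% intervals of all 45 members lay within a 1.5-fold change either way, the lowest bound being 0.669-fold and the highest 1.29-fold, so a 1.5-fold change lay outside the interval of each single member. In bulk tissue, fewer cycling cells and less of these RNAs per cell cannot be told apart.

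The lean varied in size with the libraries and settings used. The median deviation of the 39 genes from each gene's mean log2 CPM was -0.045, -0.076, -0.084 and 0.051 in the libraries labelled knockout 1 to 4. It was 0.026, 0.011, 0.128 and 0.002 in the wildtype libraries 1 to 4, so library 4 labelled knockout lay inside the wildtype range. The median log2 fold change lay below 0 in every alternative, but the alternatives reuse the same libraries and are not independent support. Without wildtype library 1 the median was -0.11, with 35 of 39 below 0. Without wildtype library 4 it was -0.10, with 36 of 39 below 0. The median was -0.05 without wildtype library 3, and 32 of 39 members then lay below 0. It was -0.05 with wildtype libraries 1 and 3 removed, and 27 of 39 lay below 0. After adding the share of counts in long noncoding RNA (lncRNA) genes as covariate it was -0.06, with 25 of 39 below 0. That share was 5.94 to 6.92% in the libraries labelled knockout and 5.52 to 6.05% in wildtype. Libraries 1 to 3 labelled knockout lay above every wildtype library, so the share and the label are largely confounded in this setting. It called 0 genes higher and 1 lower over all genes. The part of the share in the lean was not tested further. Without library 4 labelled knockout, 38 of 39 lay below 0 and 8 lay lower with an unadjusted p below 0.05 by edgeR, where the same held for 6.57% of all genes.

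**Figure D2:**
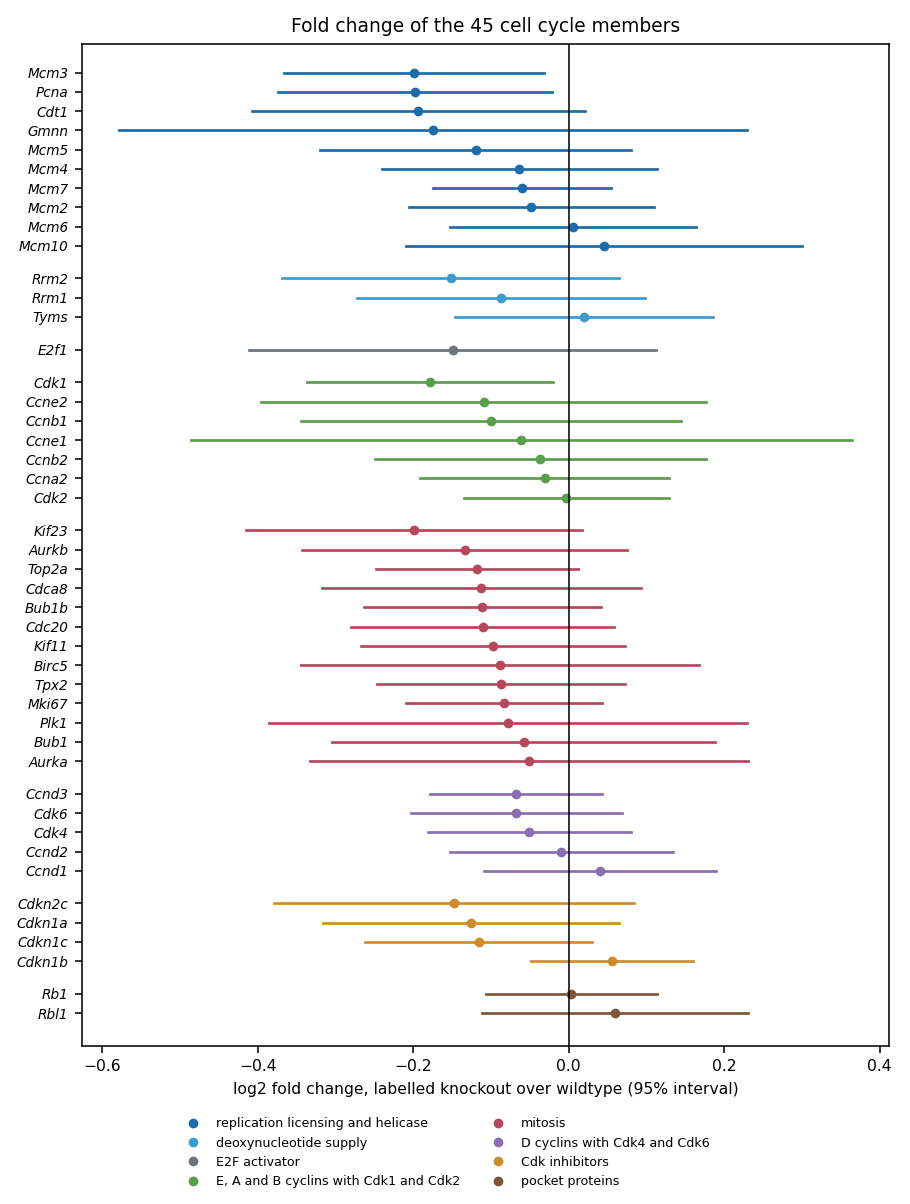
Log2 fold change of the libraries labelled knockout over wildtype (points) with its 95% interval (lines) for the 45 members, grouped by role, each group in order of its values. Intervals of Mcm3, Pcna and Cdk1 lie below 0 and those of the other 42 members cross it, while 0 members pass after adjustment over all genes.

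Among the 10 genes of replication licensing and the Mcm helicase, 8 lay below 0 in log2 fold change, with a median of -0.09. Mcm3, a subunit of the ring-shaped helicase, had the smallest p of the 45 members, with 28.0, 26.5, 25.8 and 30.6 CPM in the libraries labelled knockout 1 to 4, against 30.2, 29.4, 32.7 and 35.1 CPM in the wildtype libraries 1 to 4. Libraries 1 to 3 labelled knockout lay below all wildtype libraries, and library 4 lay inside their range. The log2 fold change was -0.20 ± 0.08 (SE), with unadjusted p = 0.0232 and adjusted p = 0.623 in the edgeR quasi-likelihood test, Benjamini-Hochberg adjusted. Pcna, loaded onto DNA as the clamp of the replicating polymerases, had 41.6, 36.2, 37.9 and 45.03 CPM in the libraries labelled knockout 1 to 4, against 45.7, 41.5, 51.2 and 46.1 CPM in the wildtype libraries 1 to 4. Its groups overlapped, at a log2 fold change of -0.20 ± 0.08. Unadjusted p was 0.0307 and adjusted p 0.647 in the edgeR quasi-likelihood test, Benjamini-Hochberg adjusted.

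Other helicase subunits were closer to 0 on the log2 scale. Mcm6, another subunit of the ring, had 59.1, 57.3, 55.1 and 64.1 CPM in the libraries labelled knockout 1 to 4, against 53.4, 58.2, 66.5 and 56.6 CPM in the wildtype libraries 1 to 4. Both its highest and its lowest value were in wildtype, and its log2 fold change was 0.01 ± 0.07 (95% interval -0.15 to 0.16). Mcm2 was at -0.05 ± 0.07, Mcm4 at -0.06 ± 0.08, Mcm5 at -0.12 ± 0.09 and Mcm7 at -0.06 ± 0.05. Cdt1, which loads the helicase, was at -0.19 ± 0.10, and Gmnn, which encodes the Cdt1 inhibitor geminin, at -0.18 ± 0.19. Mcm10, which acts when origins fire, lay at 0.05 ± 0.12. None of these passed. Exons of Mcm7 share 12.6% of their bases with other genes in GENCODE M21, so its value is less certain where strand was not used in counting.

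Promoter sequence is shown for 4 members as examples, none of which passed the test. They are Mcm3, with the smallest p, Cdk1 and Cdca8, whose groups did not overlap, and Mcm5. Mcm5 is a helicase gene that differed within the knockout-labelled group and was chosen after its values were seen. Each window runs from 250 bases before to 50 after the annotated start, 5′ to 3′ on the gene's strand, and is taken from RefSeq on GRCm38.p6 (Mcm3 at chr1:20820263-20820562, minus strand; Mcm5 at chr8:75109259-75109558, plus strand; Cdk1 at chr10:69352863-69353162, minus strand; Cdca8 at chr4:124936868-124937167, minus strand). Capitals mark matches on either strand to E2F core letters (TTCCCGC or TTGGCGC), to the cell cycle genes homology region, CHR (TTTGAA or TTCGAA), and to the CCAAT box. The CCAAT box reads ATTGG on the other strand and can share letters with the other motifs, as it does with a CHR match in Cdca8.
Mcm3: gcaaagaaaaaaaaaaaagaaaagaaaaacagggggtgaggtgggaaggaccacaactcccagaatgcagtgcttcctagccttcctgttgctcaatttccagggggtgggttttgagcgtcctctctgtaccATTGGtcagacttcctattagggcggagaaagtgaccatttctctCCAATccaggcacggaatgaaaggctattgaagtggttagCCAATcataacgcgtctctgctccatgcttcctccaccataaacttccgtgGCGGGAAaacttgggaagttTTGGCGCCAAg
Mcm5: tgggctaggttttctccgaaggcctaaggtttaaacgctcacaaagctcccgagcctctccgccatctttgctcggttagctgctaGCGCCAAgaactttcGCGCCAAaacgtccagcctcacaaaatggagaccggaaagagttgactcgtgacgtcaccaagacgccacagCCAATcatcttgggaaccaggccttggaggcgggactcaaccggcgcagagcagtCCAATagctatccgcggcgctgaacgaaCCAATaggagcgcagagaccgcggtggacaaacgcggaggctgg
Cdk1: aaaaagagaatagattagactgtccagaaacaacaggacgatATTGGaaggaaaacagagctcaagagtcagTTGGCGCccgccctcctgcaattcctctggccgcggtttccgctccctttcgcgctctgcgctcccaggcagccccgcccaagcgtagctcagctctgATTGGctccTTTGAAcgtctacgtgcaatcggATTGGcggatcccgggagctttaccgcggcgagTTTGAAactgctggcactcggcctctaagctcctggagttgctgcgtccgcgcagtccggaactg
Cdca8: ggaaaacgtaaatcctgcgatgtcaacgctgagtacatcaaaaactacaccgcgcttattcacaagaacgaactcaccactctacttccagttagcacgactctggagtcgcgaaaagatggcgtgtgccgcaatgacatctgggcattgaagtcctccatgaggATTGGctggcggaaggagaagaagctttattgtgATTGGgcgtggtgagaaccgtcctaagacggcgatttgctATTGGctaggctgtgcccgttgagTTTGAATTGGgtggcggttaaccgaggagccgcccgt

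E2F letters occurred in most windows of replication genes and CHR letters in most of those of mitosis genes. RefSeq windows were matched for 31 of the 39 proliferation members and 4 of the 6 exit members. E2F letters stood in 6 of 9 windows of the replication group (66.7%) and in 1 of 11 windows of the mitosis group (9.09%). They stood in 6.81% of all 32851 windows and in 9.81% of the 18757 windows of tested genes. CHR letters stood in 10 of 11 mitosis windows (90.9%) and in 2 of 9 replication windows (22.2%). The share was 19.2% of all windows and 15.2% of those of tested genes. CCAAT letters stood in 88.9% of replication windows and 90.9% of mitosis windows, against 37.4% of all and 36.6% of those of tested genes. The median count of CG pairs was 24 in replication and 25 in mitosis windows, against 16 in windows of tested genes and 7 in all. Of the 6 windows of exit genes, 1 held E2F letters and 0 held CHR letters. Such matches describe letters and do not show that a factor is bound.

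The genes that supply deoxynucleotides had values near those of the replication group. Rrm1, the large subunit of ribonucleotide reductase, had 51.4, 49.5, 51.0 and 62.1 CPM in the libraries labelled knockout 1 to 4, against 56.6, 53.1, 64.9 and 52.7 CPM in the wildtype libraries 1 to 4. Library 4 stood above the other 3 libraries labelled knockout, and the groups overlapped (log2 fold change -0.09 ± 0.09). Rrm2, the small subunit made in S phase, had 15.5, 14.98, 15.1 and 19.7 CPM in the libraries labelled knockout 1 to 4, against 18.0, 16.6, 18.2 and 19.9 CPM in the wildtype libraries 1 to 4, with library 4 again apart and a log2 fold change of -0.15 ± 0.10. With the lncRNA share as covariate the signs turned, to 0.0038 for Rrm1 and 0.11 for Rrm2, and that of Rrm1 also turned with wildtype libraries 1 and 3 removed (0.01). Tyms, which makes thymidylate, was at 0.02 ± 0.08. E2f1, the activator of replication genes, had 8.78, 6.75, 7.51 and 7.98 CPM in the libraries labelled knockout 1 to 4, against 8.43, 7.27, 9.07 and 9.65 CPM in the wildtype libraries 1 to 4. Its groups overlapped, at a log2 fold change of -0.15 ± 0.12 (95% interval -0.41 to 0.11).

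Among the E, A and B cyclins with Cdk1 and Cdk2, Cdk1 was the gene whose groups did not overlap. Cdk1, the kinase that drives entry into mitosis, had 13.1, 13.6, 13.6 and 13.6 CPM in the libraries labelled knockout 1 to 4, against 15.9, 15.7, 15.1 and 14.2 CPM in the wildtype libraries 1 to 4. All 4 libraries labelled knockout lay below all 4 wildtype libraries, and their spread was narrow, the means being 13.5 ± 0.236 CPM in the libraries labelled knockout and 15.2 ± 0.751 CPM in wildtype (SD, n = 4 each). The log2 fold change was -0.18 ± 0.07 (SE), with unadjusted p = 0.0303 and adjusted p = 0.647 in the edgeR quasi-likelihood test, Benjamini-Hochberg adjusted. Groups lay apart with lower values in the libraries labelled knockout for 2 of the 39 proliferation members, Cdk1 and Cdca8, and for 1.62% of all tested genes. Cdk2, the kinase partner of cyclins E and A, had 32.2, 31.9, 31.9 and 33.6 CPM in the libraries labelled knockout 1 to 4, against 30.3, 32.7, 35.0 and 31.9 CPM in the wildtype libraries 1 to 4. Its log2 fold change was -0.00 ± 0.06 (95% interval -0.14 to 0.13), with both the highest and the lowest library in wildtype. Ccne1 and Ccne2, the cyclins of the entry into S phase, were at -0.06 ± 0.20 and -0.11 ± 0.13. Ccna2, the S phase cyclin, was at -0.03 ± 0.07, and the mitotic cyclin genes Ccnb1 and Ccnb2 at -0.10 ± 0.11 and -0.04 ± 0.10. The pseudogenes Ccnb1-ps and Tyms-ps, near copies of members, held at most 0.658 CPM in a library.

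All 13 mitosis genes had a log2 fold change below 0, with a median of -0.10, and none passed. Mki67, the antigen of cycling cells, had 129.8, 129, 147 and 126 CPM in the libraries labelled knockout 1 to 4, against 138, 141, 149.7 and 135 CPM in the wildtype libraries 1 to 4. Library 3 labelled knockout stood above the other 3 of its group, and the groups overlapped (log2 fold change -0.08 ± 0.06, 95% interval -0.21 to 0.04). Cdca8, which encodes the chromosomal passenger protein borealin, had 7.26, 7.46, 7.69 and 7.63 CPM in the libraries labelled knockout 1 to 4, against 7.76, 7.80, 8.81 and 8.13 CPM in the wildtype libraries 1 to 4. These groups did not overlap, but the highest knockout-labelled library and the lowest wildtype library differed by less than the SD of either group (0.193 and 0.486 CPM), and the log2 fold change was -0.11 ± 0.09. Kif23, a kinesin of the cleavage furrow, had the smallest p of the group, with 11.4, 14.4, 12.4 and 12.2 CPM in the libraries labelled knockout 1 to 4, against 14.9, 15.9, 14.5 and 12.6 CPM in the wildtype libraries 1 to 4. Its log2 fold change was -0.20 ± 0.10, with unadjusted p = 0.0683 and adjusted p = 0.647 in the edgeR quasi-likelihood test, Benjamini-Hochberg adjusted. The remaining 10 genes lay between -0.13 and -0.05.

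Top2a, the topoisomerase that untangles sister DNA, was at -0.12 ± 0.06. The kinase genes Aurka, Aurkb and Plk1 were at -0.05 ± 0.13, -0.13 ± 0.10 and -0.08 ± 0.14. Bub1 and Bub1b, of the spindle checkpoint, were at -0.06 ± 0.11 and -0.11 ± 0.07, and Cdc20, the activator of the anaphase-promoting complex, at -0.11 ± 0.08. Birc5, which encodes survivin, was at -0.09 ± 0.12. The spindle motor gene Kif11 was at -0.10 ± 0.08 and Tpx2, an activator of Aurora A, at -0.09 ± 0.07.

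The D cyclins and their kinases lay close to 0 in log2 fold change, with a median of -0.05, and none passed. Ccnd2 had 451, 428, 402 and 473 CPM in the libraries labelled knockout 1 to 4, against 439.9, 422, 482 and 422 CPM in the wildtype libraries 1 to 4, which overlapped throughout (log2 fold change -0.01 ± 0.07, 95% interval -0.15 to 0.13). Ccnd3 had 76.1, 75.2, 72.6 and 77.9 CPM in the libraries labelled knockout 1 to 4, against 75.9, 78.1, 84.8 and 77.6 CPM in the wildtype libraries 1 to 4, at a log2 fold change of -0.07 ± 0.05. Ccnd1, a cyclin D gene also read as a marker of the prosensory domain and supporting cells, was at 0.04 ± 0.07. Cdk4 and Cdk6 were at -0.05 ± 0.06 and -0.07 ± 0.06. All 5 intervals lay between 0.869-fold and 1.14-fold. Exons of Ccnd1 and Cdk4 share bases with genes on the opposite strand in GENCODE M21 (23.4% and 19.7%), and reads of these parts cannot be told apart without strand.

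None of the 6 exit genes passed the test, and 3 had a log2 fold change below 0 and 3 above it (Rb1, at 0.00, lay below 0 with no filter), with a median of -0.06. Summed over the 6 genes, the libraries labelled knockout held 652 to 741 CPM and the wildtype libraries 679.8 to 767 CPM, most of it from Cdkn1c. The median here is that of the log2 fold changes. The median was -0.03 with wildtype libraries 1 and 3 removed, and 0.03 with the lncRNA share entered as covariate. Leaving out library 4 labelled knockout gave -0.09, and leaving out wildtype library 1 gave -0.03. Cdkn1b, the p27Kip1 gene of postmitotic hair cell precursors and supporting cells, had 129, 124, 120.3 and 132 CPM in the libraries labelled knockout 1 to 4, against 118, 119, 124 and 125 CPM in the wildtype libraries 1 to 4. The ranges overlapped, and the log2 fold change of 0.06 ± 0.05 had a 95% interval of -0.05 to 0.16, which is 0.967-fold to 1.12-fold. Cdkn1c, an imprinted inhibitor gene, had 416, 438, 401 and 468 CPM in the libraries labelled knockout 1 to 4, against 444, 433, 491 and 499 CPM in the wildtype libraries 1 to 4. Wildtype libraries 3 and 4 were the highest, the ranges overlapped, and the log2 fold change was -0.12 ± 0.07. Its exons share 30.7% of their bases with Gm44732 on the opposite strand, which makes its level less certain.

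Cdkn1a, the p21 gene induced by p53, had 53.6, 47.9, 46.1 and 52.7 CPM in the libraries labelled knockout 1 to 4, against 62.4, 46.1, 52.9 and 57.2 CPM in the wildtype libraries 1 to 4. Wildtype library 1 was the highest and wildtype library 2 lay with the lowest, so the groups overlapped at a log2 fold change of -0.13 ± 0.09. Cdkn2c, the p18Ink4c inhibitor of Cdk4 and Cdk6, had 6.61, 7.25, 7.18 and 7.28 CPM in the libraries labelled knockout 1 to 4, against 8.48, 6.91, 7.52 and 8.51 CPM in the wildtype libraries 1 to 4. Wildtype library 2 lay within the knockout-labelled range, and the log2 fold change was -0.15 ± 0.11. Rb1, the retinoblastoma pocket protein that holds E2F inactive, had 48.1, 49.97, 50.9 and 52.5 CPM in the libraries labelled knockout 1 to 4, against 49.3, 51.9, 50.4 and 49.3 CPM in the wildtype libraries 1 to 4. Its means were 50.4 ± 1.84 CPM in the libraries labelled knockout and 50.2 ± 1.19 CPM in wildtype (SD, n = 4 each), and its log2 fold change of 0.00 ± 0.05 had a 95% interval of -0.11 to 0.11, 0.929-fold to 1.08-fold. Exons of Rb1 share 14.9% of their bases with genes on the opposite strand, which makes its value less certain. Rbl1, the related pocket protein p107, had 25.9, 25.1, 26.7 and 28.7 CPM in the libraries labelled knockout 1 to 4, against 24.5, 22.6, 27.9 and 27.2 CPM in the wildtype libraries 1 to 4, overlapping throughout, at 0.06 ± 0.08.

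**Figure D3:**
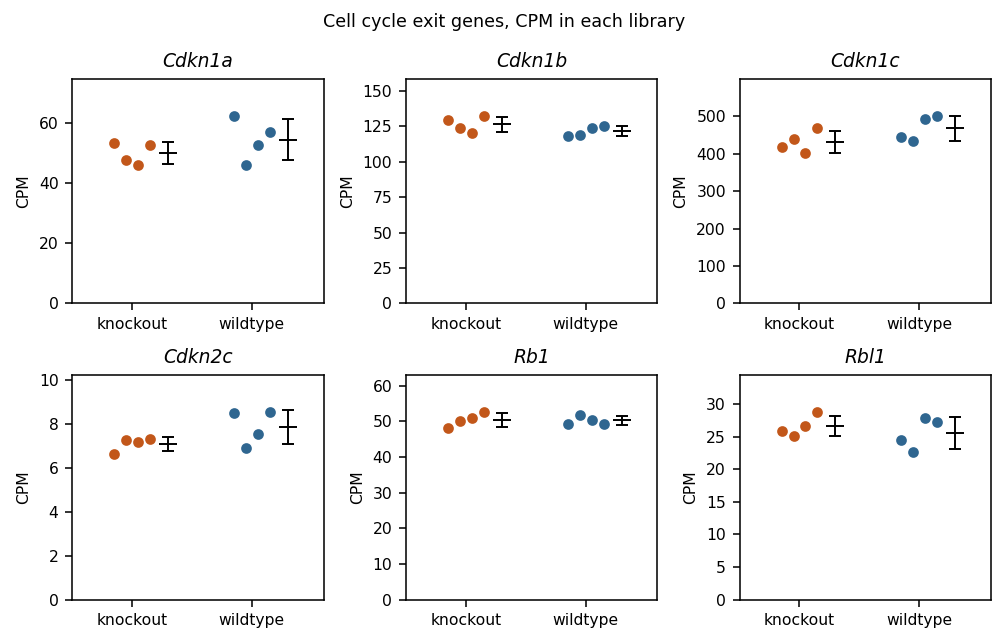
CPM of the 6 exit genes in each library (points), labelled knockout left of wildtype, with the mean and SD of each group (n = 4) beside the points and axes from 0. The groups overlap in all 6 panels.

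Within the groups, replication and mitosis genes were low in different libraries labelled knockout. For the 13 replication and deoxynucleotide genes, the median deviation from each gene's mean log2 CPM was -0.01, -0.15, -0.17 and 0.12 in the libraries labelled knockout 1 to 4, and 0.03, -0.01, 0.13 and 0.08 in the wildtype libraries 1 to 4. For the 13 mitosis genes it was -0.10, -0.04, -0.01 and -0.11 in the libraries labelled knockout 1 to 4, and 0.01, 0.04, 0.13 and 0.00 in the wildtype libraries 1 to 4. Libraries 2 and 3 labelled knockout thus held the lowest replication values, and libraries 1 and 4 labelled knockout the lowest mitosis values. Of the 13 replication and deoxynucleotide genes, 11 had both of libraries 1 and 4 above both of libraries 2 and 3 labelled knockout, which 21.2% of all tested genes did. Of the 13 mitosis genes 0 did so, and 5 had the reverse order, which 21.0% of all tested genes did. The order of the replication genes was also that of all 5 D cyclin, Cdk4 and Cdk6 genes and of E2f1, while 3 of the 7 E, A and B cyclin, Cdk1 and Cdk2 genes and 2 of the 6 exit genes had it. In CPM of total counts 3 of the 5, E2f1, 1 of the 7 and 1 of the 6 had it. Mcm5 and Plk1, chosen here after their values were seen, show both orders. Mcm5 stood at 35.5 and 37.2 CPM in libraries 1 and 4 labelled knockout and 27.6 and 28.7 CPM in libraries 2 and 3. Plk1 ran the other way, at 7.36 and 8.23 CPM in libraries 1 and 4 and 10.3 and 10.5 CPM in libraries 2 and 3.

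Libraries 1 and 4 are the knockout-labelled libraries with a scaling factor below 1, which raises their CPM. In CPM of total counts, without that scaling, the order held for 7 of the 13 replication and deoxynucleotide genes and 0 of the 13 mitosis genes, against 9.72% of all genes. The reverse order held there for 8 of the 13 mitosis genes and 0 of the 13 replication and deoxynucleotide genes, against 33.4% of all genes. For replication, deoxynucleotide and mitosis genes the wildtype libraries did not split in the same way. Wildtype libraries 1 and 3, whose factors are also below 1, were both above libraries 2 and 4 for 3 of the 13 replication and deoxynucleotide genes and 2 of the 13 mitosis genes, against 22.6% of all genes. The same order held for 3 of the 5 D cyclin, Cdk4 and Cdk6 genes and 3 of the 7 E, A and B cyclin, Cdk1 and Cdk2 genes. It held for 0 of the 6 exit genes and not for E2f1. In CPM of total counts 1 of the 5 and 0 of the 7 had it, against 10.8% of all genes. Wildtype library 3 held the highest value of the 8 libraries for 16 of the 39 proliferation genes, 7 of them mitosis genes, and the highest value of 16.2% of all tested genes. The split was noticed in these values and carries no test. By promoter letters, libraries 1 and 4 labelled knockout were above for 5 of 7 proliferation genes with E2F and no CHR letters, for 2 of 11 with CHR and no E2F letters, for 1 of 3 with both and for 8 of 10 with neither, against 21.2% of all genes.

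**Figure D4:**
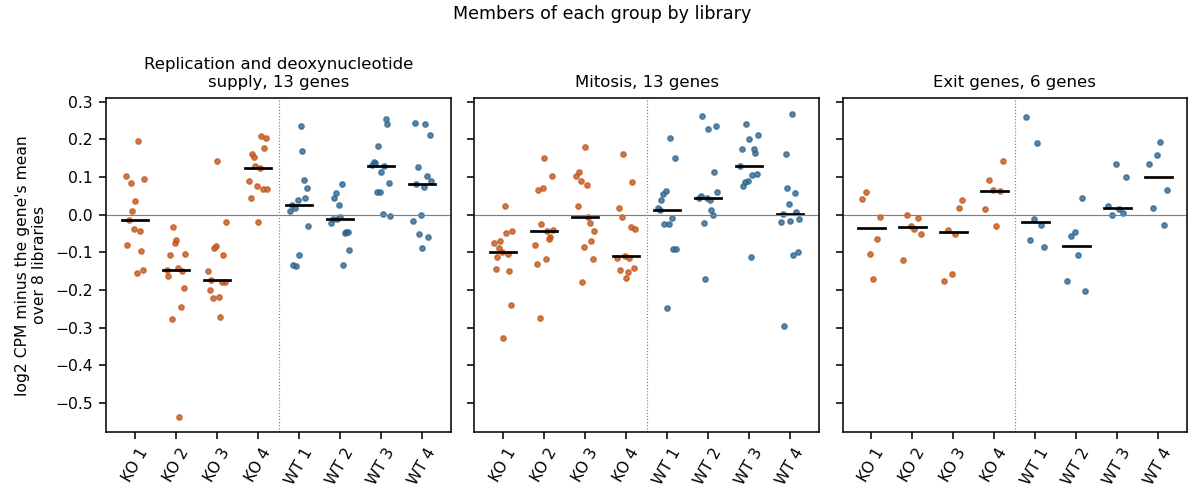
Log2 CPM of each gene minus its mean over the 8 libraries (points) and the median over genes (bars), by library, for replication and deoxynucleotide genes, mitosis genes and exit genes, labelled knockout (KO) left of wildtype (WT). Replication genes are lowest in KO 2 and KO 3 and mitosis genes lowest in KO 1 and KO 4.

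A wider list of 121 other cell cycle genes, of which 119 were tested, gave 0 genes called higher and 0 lower in the edgeR quasi-likelihood test, Benjamini-Hochberg adjusted. Their median log2 fold change was -0.04, and 82 of 119 lay below 0. The 26 kinetochore and spindle genes had a median of -0.10 with 20 below 0, near that of the mitosis members. The 16 origin licensing and firing genes had a median of 0.02 with 8 below 0, and the 24 replication fork genes one of -0.02 with 18 below 0. The 23 genes of entry into mitosis and anaphase had -0.07, and the 16 E2F and DREAM regulators -0.04. The 14 tested exit genes of this wider list had 0.02.

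The smallest p of the wider list belonged to Trp53, the p53 gene upstream of Cdkn1a, with 62.8, 63.5, 67.2 and 65.5 CPM in the libraries labelled knockout 1 to 4, against 71.9, 70.2, 72.6 and 67.2 CPM in the wildtype libraries 1 to 4. The groups did not overlap, the log2 fold change was -0.12 ± 0.05 (SE), and the call failed after adjustment (unadjusted p = 0.0274 and adjusted p = 0.646 in the edgeR quasi-likelihood test, Benjamini-Hochberg adjusted). The highest library labelled knockout and the lowest wildtype library both round to 67.2 CPM. Groups lay apart with lower values in the libraries labelled knockout for 3 of the 119 genes, against 1.62% of all tested genes, the others being Ndc80 (-0.24 ± 0.12) and Nek2 (-0.22 ± 0.11), named after their values were seen. In each other list the gene with the smallest p had a log2 fold change of 0.23 ± 0.14 (Orc1, an origin recognition subunit), -0.16 ± 0.10 (Pold2, a polymerase delta subunit), -0.20 ± 0.10 (Ect2, a cytokinesis exchange factor), -0.13 ± 0.06 (Ncapd2, a condensin subunit) and -0.18 ± 0.09 (Foxm1, a transcription factor of mitosis genes). Cdkn2d, the p19Ink4d inhibitor that keeps hair cells postmitotic in the mouse, had 12.6 ± 1.12 CPM in the libraries labelled knockout and 12.9 ± 1.74 CPM in wildtype (SD, n = 4 each), a log2 fold change of -0.03 ± 0.11. Rbl2, the third pocket protein, was at -0.01 ± 0.06.

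Markers of other cells in the dissection, some of which divide after birth, are given beside these values. All 8 mesenchyme and fibroblast markers (median log2 fold change -0.16) and all 7 greater epithelial ridge markers (-0.16) lay below 0, with summed levels of 4613 to 5553 in the libraries labelled knockout and 5468 to 6616 CPM in wildtype for the mesenchyme list. The greater epithelial ridge list summed to 7181 to 7949 in the libraries labelled knockout and 7439 to 8379 CPM in wildtype. Of 7 endothelial markers 6 lay below 0 (-0.19), with sums of 299 to 323 in the libraries labelled knockout and 294 to 341 CPM in wildtype. The 7 red cell markers summed to 1428 to 2591 in the libraries labelled knockout and 1777 to 4068 CPM in wildtype, with 6 below 0 (-0.41).

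Of the melanocyte markers 4 of 5 tested lay below 0 (-0.96), with sums of 72.5 to 75.9 in the libraries labelled knockout and 81.7 to 109 CPM in wildtype for all 7, of which Tyrp1 and Mlana were at 0 in some libraries. Macrophage markers had 5 of 7 below 0 (-0.12), with sums of 48.4 to 54.2 in the libraries labelled knockout and 45.8 to 66.1 CPM in wildtype. The glia list had 4 of 7 below 0 (-0.04) and sums of 801 to 883 in the libraries labelled knockout and 789.8 to 895 CPM in wildtype. The neuron list had 6 of 7 below 0 (-0.05) and sums of 184 to 268 in the libraries labelled knockout and 158 to 295 CPM in wildtype. Hair cell markers had 7 of 9 below 0 (-0.13) and sums of 589 to 675 in the libraries labelled knockout and 598 to 727 CPM in wildtype. Supporting cell markers had 6 of 9 below 0 (-0.00) and sums of 1139 to 1226 in the libraries labelled knockout and 1094 to 1244 CPM in wildtype. Unadjusted p-values below 0.05 on the lower side were found by edgeR for 4 of the 5 tested melanocyte markers, 3 of 7 endothelial, 3 of 7 red cell, 2 of 8 mesenchyme, 2 of 7 greater epithelial ridge, 1 of 7 neuron and 2 of 9 supporting cell markers, and for 0 in the hair cell, glia and macrophage lists. On the higher side they were found for 1 endothelial and 1 supporting cell marker. Of all tested genes, 2.78% lay lower and 4.76% higher with an unadjusted p below 0.05 by edgeR. None of these markers passed over all genes, and their part in the values of the cell cycle genes was not tested.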

How the data were processed

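Total RNA of organ of Corti was isolated with Qiagen RNeasy, depleted of ribosomal RNA and made into NEBNext Ultra II libraries, per the labels' protocols. The submitters' processing notes list cutadapt 4.3, FastQC 0.12.1, featureCounts, HISAT2 2.2.1, DESeq2 and the build GRCm39. Gene annotation, strand setting and treatment of multi-mapping reads were not given in the sources used here. Per the file headers, the authors' tables hold raw counts for every gene and library. They also deposited a DESeq2 table with a mean of normalized counts as a signal, log2 fold changes, a test score and p-values. From it only the numbers of called members and of called genes were taken.

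Each count column was matched to a library through its name in the labels. Genes were kept with filterByExpr (minimum count 10), which left 20581, and libraries were scaled by TMM. The test was the quasi-likelihood test of edgeR 4.0.16 under R 4.3.3, with the genotype label alone in the model, Benjamini-Hochberg adjustment over all tested genes and a threshold of 0.05. Intervals are 95% intervals from the fit. Prox1 was also tested by a two-sided exact permutation test of log2 CPM over 70 assignments (p = 0.0286, the smallest this design allows). Alternatives were RLE and upper quartile scaling, no filter and a filter of 50 counts in 4 libraries, DESeq2 1.42.0, limma-voom (limma 3.58.1), the replicate number as a block, each library left out, 109 haemoglobin, mitochondrial and ribosomal RNA genes removed, the wildtype libraries 1 and 3 left out, and the lncRNA share as a covariate. After the data were seen, the scaling factor as a covariate and the libraries with a factor below or above 1 alone were added.

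Exon lengths and overlaps come from GENCODE M21 and promoter windows from RefSeq, both on GRCm38, matched by symbol. Exon bases were shared with another gene by 16 of 45 members. The share was over 10% for 7 of them (Mcm7, Ccne2, Ccna2, Ccnd1, Cdk4, Cdkn1c and Rb1). It was 17.4% for Ccne2 and 12.5% for Ccna2, with genes on the opposite strand, so their values are less certain too. The closest 2 libraries of a group differed beyond sampling noise (chi-square 10.7 per degree of freedom). The edgeR test was tried on simulated data in which every gene had the same variation between libraries, unlike measured counts. No result here rests on that trial. Per-library values are given for members with an unadjusted p under 0.05 or groups that do not overlap, for exit genes, and for the member with the highest mean CPM and the smallest p of each role. Members, lists, roles and rules were chosen with earlier results of these data known.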

Additional observations from a re-analysis of the deposited data

Results flagged for a closer look

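Each of the 45 members was examined for a library far from the other 3 of its group, by Dixon's ratio of the gap to the range at the 95% level. This gave 6 cases among 90 groups of 4 libraries, and chance flags about 1 group in 20. All 6 were in the libraries labelled knockout. Library 4 stood high for both subunits of ribonucleotide reductase, with 62.1 CPM of Rrm1 against 49.5 to 51.4 CPM in the other 3, and 19.7 CPM of Rrm2 against 14.98 to 15.5 CPM. Library 1 stood low for Cdk1, at 13.1 CPM against 13.6 CPM in each of the other 3 after rounding, and for Cdkn2c, at 6.61 CPM against 7.18 to 7.28 CPM. Library 3 stood high for Mki67, at 147 CPM against 126 to 130 CPM. Library 2 stood high for Bub1b, at 18.0 CPM against 15.9 to 16.1 CPM. In Cdk1 the spread was so narrow that the gap is under 1 CPM.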

How the results depend on the processing

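The count of members called, 0 higher and 0 lower, was the same in all 21 alternatives, as was that of the 119 other cell cycle genes; the smallest adjusted p of a member was 0.240 (Pcna). Between 25 and 38 of the 39 proliferation members lay below 0, and 13 did so in every alternative. The median of exit members was 0.030 with the lncRNA share. Calls over all genes, 7 higher and 12 lower, were 12 and 24 with no filter, 35 and 48 with DESeq2, 2 and 7 with the wildtype libraries 1 and 3 left out, 0 and 1 with the lncRNA share, 12 and 21 with the scaling factor as a covariate, and 1 and 3 with factors below 1 alone; with each library left out they were 2 to 7 and 8 to 20. No pairing was given, and deviations of same-numbered libraries correlated at 0.155, 0.275, -0.344 and -0.161. Libraries 1 and 2 labelled knockout correlated best with the wildtype library of their own number, and libraries 3 and 4 did not. A pairing by number was thus not shown, and 4 libraries in a group are too few to exclude it. The replicate block gave 3 higher and 12 lower genes. Prox1 kept its direction but missed the threshold with the replicate block (0.33), the wildtype libraries 1 and 3 left out (0.28), the lncRNA share (0.30), factors below 1 alone (0.39) and factors above 1 alone (0.27), all log2 fold changes, and without any 1 library except library 4 labelled knockout (0.30 to 0.34). Of 567 single-gene values, 524 kept their sign and side; those that crossed 0 were log2 fold changes that passed in no setting, and Rrm2 moved the most, at -0.15 before the lncRNA share was added. With upper quartile scaling, they were Cdk2 0.012, Ccnd2 0.0051 and Rbl2 0.00030. With no filter, they were Rb1 -0.0024. With the stricter filter, they were Cdk2 0.010 and Ccnd2 0.0037. With the wildtype libraries 1 and 3 left out, they were Rrm1 0.015, Cdk2 0.0039, Ccnd2 0.056 and Rb1 -0.0078. With the lncRNA share, they were Rrm1 0.0038, Rrm2 0.11, Cdk2 0.015, Ccnd2 0.0025 and Cdkn2d 0.054. With the scaling factor as a covariate, they were Cdk2 0.0039 and Ccnd2 0.016. With factors below 1 alone, they were Cdk2 0.013, Ccnd2 0.0031 and Cdkn2d 0.041. With factors above 1 alone, they were Mcm6 -0.031, Mki67 0.00050, Cdkn1b -0.0026, Rb1 -0.0068 and Rbl2 0.0067. With 1 library left out, the ranges were Mcm6 -0.038 to 0.071, Cdk2 -0.036 to 0.034, Ccnd2 -0.049 to 0.035, Rb1 -0.018 to 0.024, Cdkn2d -0.11 to 0.028 and Rbl2 -0.057 to 0.0089. The cause was not tested. Gmnn and Ccne1 had the largest SE of the members (0.19 and 0.20); at a like mean level Mcm10 had 0.12.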
